A study of Bos taurus with 14 samples.

Results

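The genes described here are the heat shock proteins and chaperones carried on a bovine microarray, in 2 cell types exposed to interferon tau (IFNT), which a ruminant conceptus secretes at the time its mother's body recognises pregnancy. They were chosen by gene symbol alone: symbols that begin with DNAJ, PDIA, HSP followed by a digit or a letter from A to H, or CCT or BAG followed by a digit, together with CALR and CANX. The rule found 46 genes among 15026 symbols, carried by 48 of 15208 probes, and 45 of them are written in capitals, CANX being written in small letters on the array. Where a symbol had more than 1 probe, the one with the highest mean signal was used. Groups were bovine stromal cells of the endometrium (BES) with phosphate-buffered saline (PBS, n = 3), BES with IFNT (n = 3), granulocytes with PBS (n = 4) and granulocytes with IFNT (n = 4), all after 2 h. IFNT was given at 1 mg/mL according to the labels, which describe the stromal cells as an in vitro study and the granulocytes as in vivo and in vitro. Whether replicates are separate animals or cultures is not given in the labels, and errors and p-values measure only the spread between these samples. Each sample was labelled with Cy3 and read on its own array.

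Chaperones hold unfolded proteins, help them fold and hand them on for repair or breakdown. HSP70 proteins bind and release short exposed stretches of a client in a cycle driven by ATP. J-domain proteins (DNAJ) deliver clients and start that cycle, and BAG proteins and the HSP110 proteins end it by exchanging the nucleotide. HSP90 acts late on kinases and receptors, small heat shock proteins keep unfolding clients soluble without ATP, the CCT ring folds actin and tubulin, and HSPE1 caps the chaperonin of mitochondria. In the endoplasmic reticulum, calreticulin (CALR) and calnexin (CANX) hold glycoproteins, and protein disulfide isomerases (PDIA) form their disulfide bonds. Proteins newly made after an interferon signal need these systems to fold.

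Symbols on the array are partly old, and the bovine RefSeq gene table (assembly ARS-UCD2.0, used for names alone) gave another symbol for 10 of the 46 genes. HSPCA is HSP90AA1 (the inducible cytosolic HSP90), HSPA9B is HSPA9 (mortalin, the mitochondrial HSP70) and HSPA3 is HSPA2. The probe named HSPA1B leads to HSPA1A in that table, so the 2 probes of this nearly identical gene pair may read the same or different copies. A further 6 symbols are names of cDNA clones that start with HSPC and are not heat shock proteins: HSPC049 is WDR91, HSPC105 is SDR42E1, HSPC111 is NOP16, HSPC117 is RTCB, HSPC142 is BABAM1 and HSPC152 is TRMT112. Counts are therefore also given for the 40 genes without these clone names. Every probe is 60 bases long, and among the 76 chaperone probes compared the longest run of bases that any pair shares is 11. The probes named HSPA1A and HSPA1B share a run of 5 bases, as do the 2 probes of DNAJA2. Probes were compared with each other and not with transcripts, so short runs do not show which transcripts a probe reads. The results on DNAJA2 turn on which of its probes is read. The following probe sequences are of HSP70 genes and DNAJA2, with capitals for the longest run that each shares with any other chaperone probe.
HSPA1B: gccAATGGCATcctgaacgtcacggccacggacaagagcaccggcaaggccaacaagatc
HSPA3: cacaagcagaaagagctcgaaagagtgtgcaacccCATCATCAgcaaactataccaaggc
HSPA5: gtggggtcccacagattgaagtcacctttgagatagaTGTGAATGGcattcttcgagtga
DNAJA2, main probe: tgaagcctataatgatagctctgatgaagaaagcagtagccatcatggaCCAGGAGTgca
DNAJA2, second probe: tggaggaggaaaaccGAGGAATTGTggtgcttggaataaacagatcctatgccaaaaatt
The HSPA5 gene is on the array under another name and belongs to the group described after the 46 members. No genome build is stated for the array, so no position is given.

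Levels are log2 signals with the 75th percentile of each array set to 0, and a difference of 1 is a doubling on this scale. Of the 46 members, 42 were well above background on all 14 arrays, and none had a saturated or an outlier spot. PDIA2, DNAJC6 and HSPB3 were too dim to be tested in either cell type, which leaves 43 members tested, and PDIA4 was well above background on 2 of the 4 granulocyte arrays with PBS and 2 of the 4 with IFNT. Of 7 stromal markers, 5 were higher in BES, and all 6 granulocyte markers were higher in granulocytes. The mean level of 7 stromal markers was 2.58 to 2.62 on BES PBS arrays and -5.13 to -4.63 on granulocyte PBS arrays, where COL1A2, COL3A1 and LUM were not above background. THY1 (mean -4.39 in BES and -1.88 in granulocytes with PBS) and VIM (4.53 and 4.67) were the stromal markers that were higher in granulocytes. BES also carried epithelial markers, with KRT8 at a mean of 7.19, KRT19 at 5.95 and CDH1 at 3.50, while EPCAM was not above background. The mean level of these 4 epithelial markers in BES was 1.64 to 1.77 with PBS and 1.65 to 1.7 with IFNT, and their part in the BES values was not tested. The mean level of 6 granulocyte markers was -5.98 to -5.55 and 5.61 to 5.74 on the same arrays, and CXCR1 and FCGR3A were not above background in BES. The mean level of 4 interferon-response genes was -5.39 to -4.96 with PBS and 0.176 to 0.442 with IFNT in BES, and 3.50 to 3.62 with PBS and 6.18 to 6.25 with IFNT in granulocytes. Of these, ISG15 was saturated on all 4 granulocyte arrays with IFNT, and MX2 did not pass in BES (0.65, adjusted p = 0.168, limma). The BES arrays shared 1 slide and the granulocyte arrays another, where array row 1 held every PBS sample and array row 2 every IFNT sample, so that row and IFNT cannot be told apart in granulocytes. In BES, row 1 held PBS samples 1 and 2, and row 2 held PBS sample 3 and every IFNT sample. Only PBS sample 3 therefore separates row from IFNT in BES.

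In stromal cells the chaperone genes changed little after 2 h of IFNT, and 1 of the 43 tested members passed the test. DNAJA1, a cytosolic J-domain protein that serves HSP70, lay at 3.36, 3.34 and 3.37 on the PBS arrays and at 3.68, 3.60 and 3.68 on the IFNT arrays. The groups did not overlap, and the rise was 0.29 ± 0.04 on the log2 scale (SE, adjusted p = 0.0219, limma). Of all probes tested in BES, 3.66% passed, 2.29% higher and 1.37% lower. DNAJA1 no longer passed without IFNT sample 1, IFNT sample 3, PBS sample 1 or PBS sample 2, with adjusted p between 0.0772 and 0.0977 and a change of 0.28 to 0.30. With array row in the fit its change was 0.28 and its adjusted p 0.2.

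No member fell past the threshold in BES by limma, while 13 of 43 members had an unadjusted p under 0.05 in either direction. The median change of the 43 members was -0.05, beside -0.02 over all probes tested, and groups did not overlap for 19 members (44.2%) beside 33.5% of all probes. The 3 tested small heat shock proteins each had all IFNT arrays below all PBS arrays. HSPB8, which works with BAG3 in the removal of aggregated proteins, lay at 2.09, 2.16 and 2.17 with PBS and at 1.95, 1.88 and 1.90 with IFNT (-0.23 ± 0.05, adjusted p = 0.0503 by limma). DNAJB2, a J-domain protein that binds ubiquitin chains, differed by -0.25 ± 0.05 (adjusted p = 0.0559), CCT3 by -0.30 ± 0.08 (adjusted p = 0.0878) and the probe named HSPA1B by -0.40 ± 0.11 (adjusted p = 0.0977). These values missed the threshold, but CCT3 passed without PBS sample 3 (adjusted p = 0.0481), and HSPB8, DNAJB2, CCT3 and HSPA1B fell past it with a prior that follows intensity (adjusted p 0.00948 to 0.0368). The plot of all members by family shows these changes beside those of granulocytes.

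**Figure D1:**
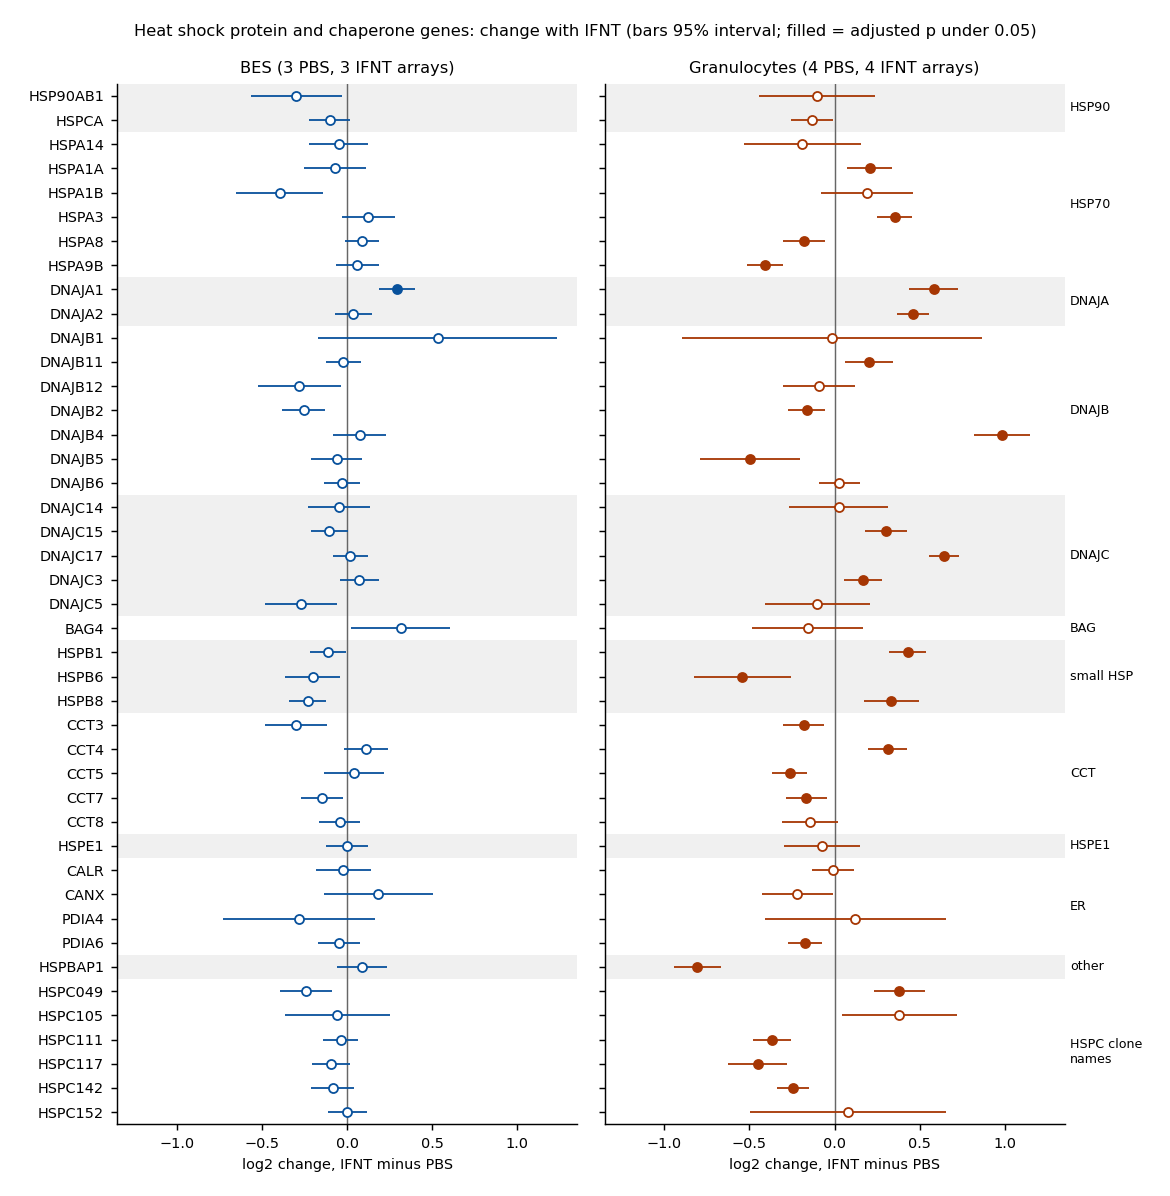
Log2 change with IFNT (horizontal axis) of the 43 tested members, ordered by family, in BES (left, 3 arrays per group) and granulocytes (right, 4 arrays per group). Points are limma estimates with 95% intervals and are filled where the adjusted p is under 0.05: 1 member in BES, and 13 higher and 13 lower in granulocytes.

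In granulocytes, where array row and IFNT cannot be told apart, 26 of the 43 members passed the threshold, 13 up and 13 down. That is 60.5% of the members beside 44.6% of all probes tested in these cells, of which 17.2% rose and 27.4% fell. Without the clone names, 12 rose and 10 fell among 37 tested genes. The median change of the members was -0.07 and that of all probes -0.05, and the median size of a change, whatever its sign, was 0.20 for both. IFNT and PBS arrays did not overlap for 26 members (60.5%), beside 43.6% of all probes. The J-domain proteins held 7 of the 13 rises, and the CCT ring 3 of the 13 falls. Markers of monocytes and of eosinophils, which are granulocytes, moved with IFNT in these samples. The mean level of 3 monocyte markers was 1.94 to 2.10 with PBS and 2.39 to 2.46 with IFNT. Of these markers, 2 rose and 1 fell past the threshold. The mean level of 2 eosinophil markers was 1.94 to 2.01 with PBS and 1.13 to 1.32 with IFNT (both fell). Of 4 T and NK cell markers 1 rose past the threshold, and neither of 2 B cell markers passed. The part of these cell types in the chaperone values was not tested. Fewer cells of a type and less RNA per cell cannot be told apart in such samples.

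Neither cytosolic HSP90 gene passed the test in granulocytes. HSPCA lay at 6.37, 6.32, 6.46 and 6.35 with PBS and at 6.17, 6.19, 6.32 and 6.29 with IFNT. No IFNT array reached the PBS range, although the nearest arrays of the groups were both 6.32 after rounding. The difference of the means was no larger than the range within either group (-0.13 ± 0.05, adjusted p = 0.0789, limma). It passed with all 14 arrays in 1 fit (adjusted p = 0.0387) and with quantile normalization (adjusted p = 0.0247). HSP90AB1, the constitutive form, lay at 4.05, 4.30, 3.87 and 4.55 and at 4.10, 4.27, 3.85 and 4.12, with overlapping groups (-0.10, 95% interval -0.45 to 0.24).

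The HSP70 genes went both ways, with 2 of 6 higher and 2 lower. HSPA9B, the mitochondrial HSP70 that pulls proteins through the inner membrane, lay at -2.15, -2.11, -2.14 and -2.16 with PBS and at -2.57, -2.61, -2.55 and -2.46 with IFNT. The gap between the groups was several times their spread (-0.41 ± 0.05, adjusted p = 0.000153, limma). HSPA8, the constitutive cytosolic HSP70, lay at 7.78, 7.73, 7.88 and 7.67 and at 7.59, 7.59, 7.62 and 7.54, a fall of 0.18 ± 0.05 (adjusted p = 0.0234) without overlap. HSPA3 lay at -2.49, -2.50, -2.43 and -2.51 with PBS and at -2.13, -2.07, -2.19 and -2.13 with IFNT, a rise of 0.35 ± 0.05 (adjusted p = 0.000285). The stress-inducible HSPA1A lay at 4.79, 4.78, 4.69 and 4.84 and at 5.07, 4.95, 4.88 and 5.04, which is a small rise without overlap (0.21 ± 0.06, adjusted p = 0.0183). The probe named HSPA1B was on average 0.19 ± 0.12 higher with IFNT, but its groups overlapped (adjusted p = 0.232), and HSPA14 differed by -0.19 ± 0.15 (adjusted p = 0.344). HSPA1A no longer passed without IFNT sample 1 or 4 (adjusted p 0.0515 to 0.0536) or with quantile normalization (adjusted p = 0.075), and HSPA8 without IFNT sample 1, 2 or 4 (adjusted p 0.0509 to 0.065).

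Both class A J-domain proteins, the general partners of cytosolic HSP70, rose. DNAJA1 lay at 4.54, 4.70, 4.84 and 4.69 with PBS and at 5.26, 5.28, 5.28 and 5.28 with IFNT. The IFNT arrays lay closer together than the PBS arrays and well above them, and the rise was 0.58 ± 0.06, or 1.5-fold (adjusted p = 0.000115, limma). DNAJA2 lay at 0.04, 0.07, 0.07 and 0.14 with PBS and at 0.53, 0.55, 0.55 and 0.53 with IFNT by its main probe (0.46 ± 0.04, adjusted p = 3.46e-05). Its second probe, printed above, went the other way, from -0.44, -0.47, -0.42 and -0.58 to -0.63, -0.60, -0.65 and -0.57, a difference that missed the threshold (-0.14, adjusted p = 0.0535). The mean of both probes rose by 0.16 (adjusted p = 0.00865), so the DNAJA2 rise rests on the main probe.

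The class B and C J-domain proteins are specialised by location and client, and 5 of the 12 tested rose while 2 fell. DNAJB4, a cytosolic partner of HSP70 best known from muscle, had the largest rise of the 43 tested members at the settings reported. It lay at -5.08, -5.11, -5.10 and -5.00 with PBS and at -4.26, -4.10, -3.92 and -4.07 with IFNT, a 1.98-fold rise (0.98 ± 0.07, adjusted p = 9.59e-06, limma). This probe was dim in granulocytes, and with another background correction (normexp) the rise was 0.41 (adjusted p = 0.00494), less than that of DNAJA1 and DNAJC17 with the same correction (0.58 and 0.57). DNAJC17, a J-domain protein of the nucleus with an RNA recognition motif, lay at -1.73, -1.71, -1.72 and -1.67 and at -1.06, -1.07, -1.06 and -1.09. Here the arrays of a group differed by far less than the change, which was 0.64 ± 0.04 (adjusted p = 2.86e-06). DNAJC15, a J-domain protein of the mitochondrial inner membrane, lay at -1.06, -1.09, -1.20 and -1.05 and at -0.85, -0.74, -0.86 and -0.75 (0.30 ± 0.05, adjusted p = 0.00194).

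DNAJB11 and DNAJC3, J-domain proteins of the interior of the endoplasmic reticulum, rose slightly, while DNAJB12 (-0.09 ± 0.09, adjusted p = 0.457) and DNAJC14 (0.02 ± 0.13, adjusted p = 0.901, limma) of its membrane did not pass. DNAJB11, a co-chaperone of the HSP70 of that compartment, lay at 0.78, 0.76, 0.78 and 0.55 with PBS and at 0.93, 0.91, 0.87 and 0.97 with IFNT (0.20 ± 0.06, adjusted p = 0.0285, limma). DNAJC3, which also restrains the kinases PERK and PKR, lay at 1.27, 1.41, 1.43 and 1.41 and at 1.52, 1.58, 1.57 and 1.52 (0.17 ± 0.05, adjusted p = 0.0248). In both genes a single PBS array lay below the other 3, and the groups did not overlap. DNAJB11 lost its call without IFNT sample 1, 2 or 4 (adjusted p 0.0573 to 0.0756), and DNAJC3 without IFNT sample 2 or 3 (adjusted p 0.0636 to 0.0656). Both were also lost with median scaling (adjusted p 0.0506 and 0.0711) and with dim probes kept (adjusted p 0.0613 and 0.055).

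DNAJB2 fell, from 2.32, 2.23, 2.20 and 2.19 to 2.02, 2.06, 2.07 and 2.13 (-0.16 ± 0.05, adjusted p = 0.0206, limma). Its call was lost without IFNT sample 1 or 2 or PBS sample 2 (adjusted p 0.0505 to 0.0574). DNAJB5 also passed the test, from -2.56, -2.74, -2.65 and -2.55 to -2.71, -3.30, -3.25 and -3.23, although IFNT sample 1 stayed within the PBS range (-0.50 ± 0.13, adjusted p = 0.013). The best-known heat-inducible J-domain gene, DNAJB1, varied too widely to show a direction. It lay at 2.28, 1.58, 2.77 and 1.07 with PBS and at 2.20, 1.15, 2.22 and 2.08 with IFNT, a spread that leaves the difference anywhere from -0.90 to 0.87 (95% interval around -0.01). DNAJB6, DNAJB12, DNAJC5 and DNAJC14 differed by -0.10 to 0.03 and did not pass. The only BAG gene among the members, BAG4, a dim probe, differed by -0.16 ± 0.14 (adjusted p = 0.415), and it passed without PBS sample 4 (adjusted p = 0.0484).

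The small heat shock proteins split, with 2 of the 3 tested higher and 1 lower. HSPB1, the ubiquitous member of the family that also binds actin, lay at 2.73, 2.79, 2.71 and 2.67 with PBS and at 3.23, 3.14, 3.10 and 3.14 with IFNT (0.43 ± 0.05, adjusted p = 0.000136, limma). HSPB8 lay at -3.50, -3.69, -3.73 and -3.50 and at -3.18, -3.27, -3.35 and -3.29 (0.33 ± 0.07, adjusted p = 0.00462). All IFNT arrays of these genes were above all PBS arrays. HSPB6, a form typical of muscle, went from 0.33, 0.32, -0.10 and 0.39 to -0.31, -0.14, -0.25 and -0.54, where PBS sample 3 lay close to the IFNT arrays without reaching them (-0.54 ± 0.12, adjusted p = 0.00701).

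**Figure D2:**
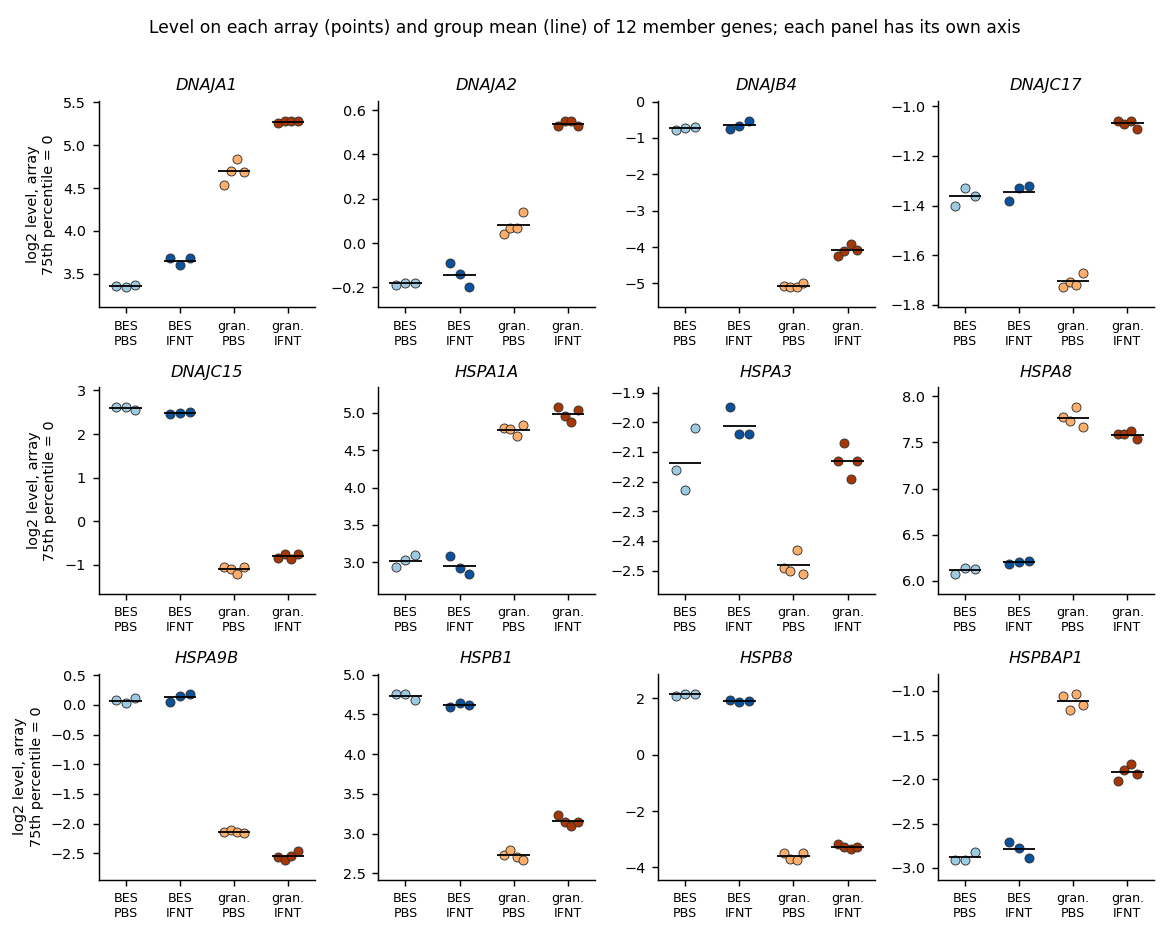
Log2 level (75th percentile of the array = 0) of 12 members on each of the 14 arrays, by group; points are arrays and lines are group means, and the vertical axes differ between panels. In granulocytes the IFNT arrays lie above the PBS arrays for 9 of these genes and below them for HSPA8, HSPA9B and HSPBAP1, while in BES only DNAJA1 passed the test.

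Subunits of the CCT ring, which work as equal parts of one complex, did not move together. Of 5 subunits, CCT3, CCT5 and CCT7 fell and CCT4 rose in granulocytes. CCT5 went from -1.06, -1.14, -1.08 and -1.04 to -1.37, -1.40, -1.33 and -1.28 (-0.26 ± 0.05, adjusted p = 0.00166, limma), while CCT4 went from 3.13, 3.11, 3.24 and 3.09 to 3.41, 3.42, 3.47 and 3.52 (0.31 ± 0.05, adjusted p = 0.00117). Neither pair of groups overlapped. CCT3 (-0.18 ± 0.05) and CCT7 (-0.17 ± 0.05) had smaller falls with adjusted p of 0.0209 and 0.0304, and CCT8 differed by -0.14 ± 0.07 without passing (adjusted p = 0.136). The CCT3 call was lost without IFNT sample 1 or 3 or PBS sample 2 (adjusted p 0.0521 to 0.0608). CCT7 was lost without any of IFNT samples 2, 3 and 4 and PBS samples 1, 2 and 4 (adjusted p 0.0504 to 0.0823), and with quantile normalization (adjusted p = 0.0527). The mitochondrial HSPE1 differed by -0.07 (95% interval -0.29 to 0.15) with overlapping groups.

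In the endoplasmic reticulum set, 1 of 4 tested genes passed. PDIA6, a disulfide isomerase, went from 3.15, 3.23, 3.19 and 3.25 to 3.01, 3.06, 3.00 and 3.04 (-0.18 ± 0.04, adjusted p = 0.0105, limma), and by -0.10 with quantile normalization (adjusted p = 0.119). CALR lay at 4.94, 4.88, 4.84 and 5.03 with PBS and at 4.89, 4.97, 4.86 and 4.94 with IFNT, and the 95% interval of its difference ran from -0.13 to 0.11. CANX, from a dim probe, was on average lower with IFNT (-0.22 ± 0.09) but missed the threshold (adjusted p = 0.0826), which it passed without IFNT sample 2 (adjusted p = 0.0303) and with quantile normalization (adjusted p = 0.041). PDIA4 differed by 0.12 ± 0.23 (adjusted p = 0.712) on a probe near background, and its brighter second probe, described on the array as ERp70, by -0.02.

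HSPBAP1, a protein that binds HSPB1, had the largest fall of the 43 tested members. It lay at -1.06, -1.21, -1.03 and -1.16 with PBS and at -2.02, -1.90, -1.83 and -1.94 with IFNT, so that the groups were far apart, and the 1.75-fold fall passed the test (-0.81 ± 0.06, adjusted p = 1.12e-05, limma). Among the HSPC clone names, which are listed here because the symbol rule took them, HSPC049 rose by 0.38 ± 0.07. HSPC111, a nucleolar protein (NOP16), fell by 0.37, HSPC117, the tRNA ligase RTCB, fell by 0.45, and HSPC142 fell by 0.25, with adjusted p between 0.000341 and 0.00138. HSPC105 (0.38 ± 0.15, adjusted p = 0.068) and HSPC152 (0.08 ± 0.25) did not pass.

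Responses were then compared between the cell types in a single test of the difference, since a gene that passes in one cell type alone is not shown to differ. Array row and IFNT cannot be told apart in granulocytes, and the part of array row in these differences was not tested. Of the 43 members, 10 responded higher in granulocytes and 6 lower, which is 37.2% beside 26.5% of all probes tested (11.7% higher and 14.8% lower). Without the clone names the counts were 9 and 4 of 37. The largest differences upward were those of DNAJB4 (0.91 ± 0.10, adjusted p = 4.36e-05), DNAJC17 (0.62 ± 0.05, adjusted p = 2.46e-06), HSPC049 (0.62 ± 0.10), the probe named HSPA1B (0.58 ± 0.18, adjusted p = 0.0303), HSPB8 (0.56 ± 0.09, adjusted p = 0.000673) and HSPB1 (0.54 ± 0.06, adjusted p = 5.43e-05). For DNAJB4 and DNAJC17 the response in BES was near 0 (0.07 and 0.02). HSPB8 rose in granulocytes and had a lower mean with IFNT in BES, which did not pass, and for the probe named HSPA1B neither change passed on its own.

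The largest difference downward was that of HSPBAP1 (-0.89 ± 0.09, adjusted p = 1.26e-05, limma), which in BES had been slightly higher with IFNT (0.09 ± 0.06). HSPA9B followed (-0.47 ± 0.07, adjusted p = 0.000265), then HSPC117 (-0.36 ± 0.10, adjusted p = 0.0188), HSPC111 (-0.33 ± 0.06, adjusted p = 0.00187), CCT5 (-0.31 ± 0.08, adjusted p = 0.0161) and HSPA8 (-0.27 ± 0.07, adjusted p = 0.0118). DNAJA1, the gene that rose in both cell types, rose more in granulocytes (0.29 ± 0.08, adjusted p = 0.0222). This difference depends on the scaling, since quantile normalization gave -0.0098 (adjusted p = 0.944), and it was also lost without BES IFNT sample 2 (adjusted p = 0.059). The DNAJB4 difference was 0.33 (adjusted p = 0.066) with the normexp correction, and that of DNAJA2 was 0.14 (adjusted p = 0.0729) over the mean of its probes. HSPA1B lost its call without BES IFNT sample 3, BES PBS sample 2, or granulocyte IFNT sample 2 or 4 (adjusted p 0.0563 to 0.0823). HSPA3 (0.23 ± 0.08, adjusted p = 0.0418) lost its call when any 1 array was left out (adjusted p 0.0602 to 0.0948) other than BES IFNT sample 1, BES PBS sample 2, granulocyte IFNT sample 3 or granulocyte PBS sample 3. It was also lost with the normexp correction (0.16, adjusted p = 0.181), median scaling, a prior that follows intensity and dim probes kept (adjusted p 0.0525 to 0.0647), while DNAJC15 (0.41 ± 0.07, adjusted p = 0.00112) kept it each time.

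**Figure D3:**
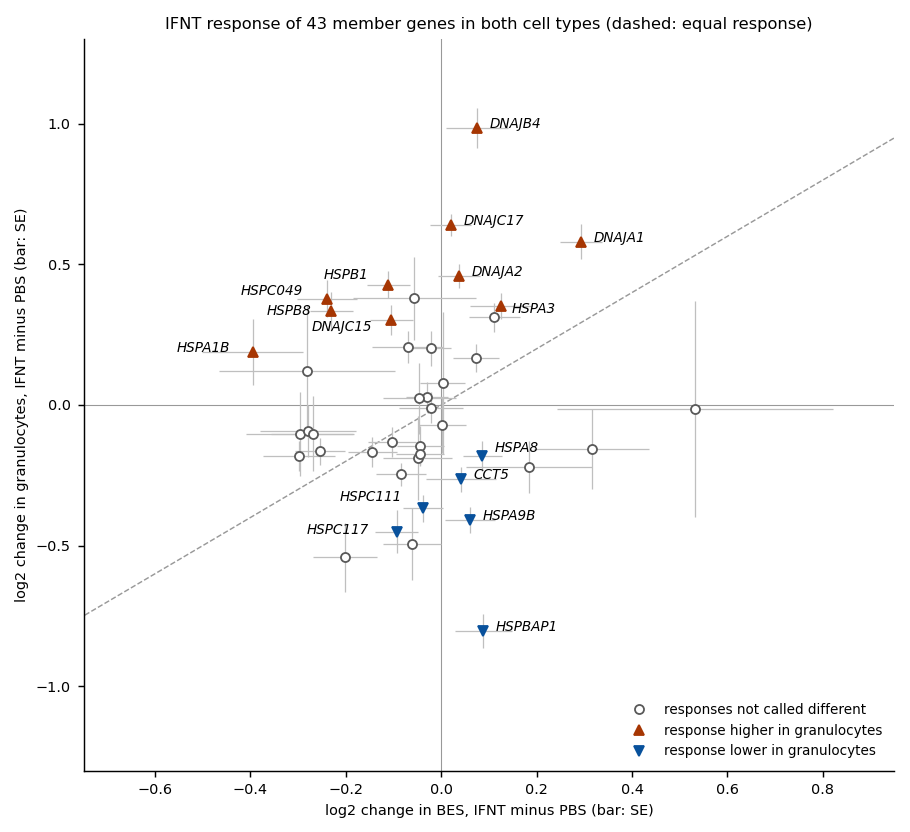
Log2 change with IFNT in BES (horizontal axis) and in granulocytes (vertical axis) for the 43 tested members, with standard errors; the dashed line marks equal responses. Triangles mark the 10 members that responded higher and the 6 that responded lower in granulocytes by limma (adjusted p under 0.05); among them the BES change runs from -0.40 (HSPA1B) to 0.29 (DNAJA1) and the granulocyte change from -0.81 (HSPBAP1) to 0.98 (DNAJB4).

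Without interferon the cell types differed in nearly all chaperone genes: 15 of 43 members were higher in granulocytes and 25 lower. This is the general picture on these arrays, where 91.7% of all probes passed (46.7% higher and 45% lower), and groups did not overlap for 39 members (90.7%) beside 90.4% of all probes. The slide changed with the cell type, and their shares cannot be told apart. The median difference over all probes tested was 0.03, and it was 0.50 with the normexp correction, -0.23 with quantile normalization and -0.12 with median scaling, so the size of a difference depends on the processing. Single genes moved further than this median, such as HSPA14, which was -1.1 at the settings reported and -0.22 with the normexp correction.

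The HSP90 genes were opposite in the cell types. HSPCA lay at 5.12, 5.15 and 5.07 in BES and at 6.37, 6.32, 6.46 and 6.35 in granulocytes, a difference of 1.26 ± 0.05 (adjusted p = 5.77e-11, limma) that was 0.16 with quantile normalization. HSP90AB1 lay at 6.20, 6.50 and 6.06 in BES and at 4.05, 4.30, 3.87 and 4.55 in granulocytes (-2.06 ± 0.15, adjusted p = 2.94e-08). The groups of both genes were far apart. The cytosolic HSP70 genes HSPA1A (1.75 ± 0.07) and HSPA8 (1.65 ± 0.05) were higher in granulocytes, by 1.15 and 0.75 with quantile normalization, and the mitochondrial HSPA9B (-2.21 ± 0.05) and HSPE1 (-2.20 ± 0.09) were lower. HSPA1B passed as well (0.48 ± 0.13), but not with quantile normalization (0.15).

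All 5 CCT subunits were lower in granulocytes, between -1.31 (CCT4) and -2.22 (CCT3) and between -2.18 and -3.01 for the same pair with quantile normalization. All 4 tested genes of the endoplasmic reticulum were also lower, from CALR (-0.80 ± 0.06) and CANX (-1.0 ± 0.12) to PDIA6 (-1.22 ± 0.04) and PDIA4 (-2.16 ± 0.25). Their sizes moved with the processing, since the dim CANX and PDIA4 probes gave -0.23 and -0.51 with the normexp correction, and CALR and PDIA6 gave -1.76 and -2.07 with quantile normalization. Each of these 9 genes kept its direction and its call under each scaling tried.

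The genes with the 3 largest differences, under each scaling tried, were HSPB8, DNAJB4 and DNAJC15. HSPB8 lay at 2.09, 2.16 and 2.17 in BES and at -3.50, -3.69, -3.73 and -3.50 in granulocytes, 53.7-fold lower (-5.75 ± 0.06, adjusted p = 2.05e-16, limma). The difference was -4.34 ± 0.07 for DNAJB4 and -3.69 ± 0.05 for DNAJC15, with DNAJB4 at -2.92 under the normexp correction. DNAJB4 and HSPB8 thus rose with IFNT in granulocytes from levels that stayed far below those of BES. HSPB1 was also lower in granulocytes (-2.0 ± 0.04). Higher in granulocytes were DNAJB1 (2.77 ± 0.40, adjusted p = 2.46e-05), BAG4 (2.13 ± 0.15), HSPBAP1 (1.77 ± 0.06), DNAJC14 (1.58 ± 0.12) and DNAJA1 (1.33 ± 0.06, and 0.66 with quantile normalization). DNAJB1 varied widely in BES too, at -0.81, -1.47 and -0.25, yet no granulocyte array fell to that range.

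**Figure D4:**
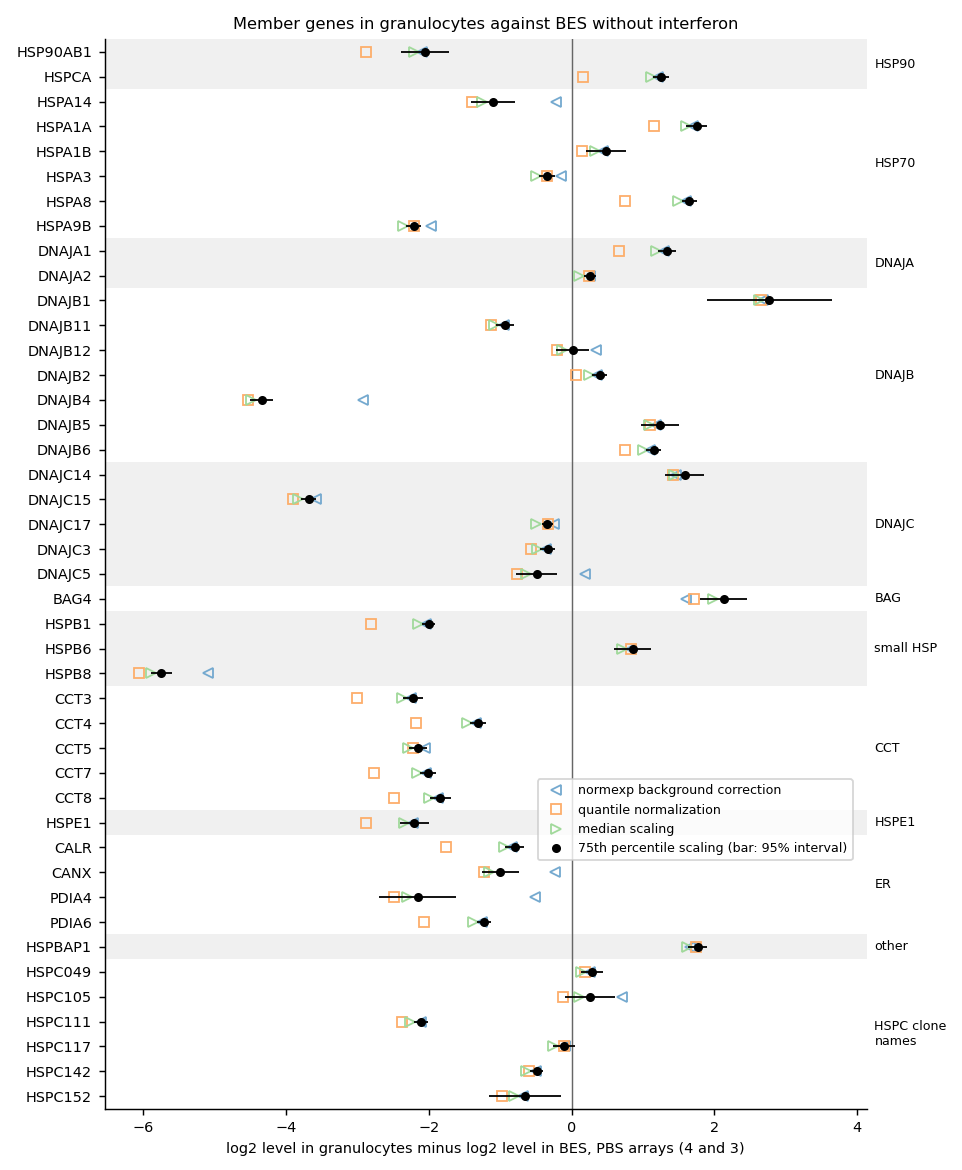
Log2 level in granulocytes minus log2 level in BES on PBS arrays (4 and 3), by member and family. Black points and bars are the estimates with 95% intervals after scaling to the 75th percentile, and open symbols show 3 other ways of processing; the CCT and endoplasmic reticulum genes lie to the left of 0 under each of them.

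The array carries 27 further chaperone genes under locus or clone names that the symbol rule does not take. They were identified from RefSeq names and array descriptions, some of which say only that the sequence is similar to the gene. Of those named below, BAG1, BAG2, BAG3, CCT2, CCT6B, DNAJC13, HSPH1 and HSPA12A had no RefSeq match and rest on the descriptions alone. None of the 21 tested in BES passed the test (6 had an unadjusted p under 0.05, limma), and in granulocytes 6 of 20 rose and 4 fell, near the 44.6% of all probes that passed there (17.2% higher and 27.4% lower). The largest rise was that of a BAG gene. BAG1, which releases clients from HSP70, lay at -1.64, -1.59, -1.62 and -1.32 with PBS and at 0.54, 0.62, 0.46 and 0.52 with IFNT, a 4.23-fold rise (2.08 ± 0.08, adjusted p = 1.32e-07) that exceeded every change among the members. In BES it lay at 0.34, 0.48 and 0.33 with PBS and at 0.38, 0.45 and 0.46 with IFNT, with no change past the threshold, and the responses differed by 2.03 ± 0.11 (adjusted p = 5.11e-08).

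BAG3, the partner of HSPB8, lay at -0.11, -0.13, -0.10 and -0.03 and at 1.1, 0.93, 0.93 and 1.1 in granulocytes (1.1 ± 0.06, adjusted p = 1.18e-06, limma), and this response also exceeded that of BES (0.92 ± 0.08, adjusted p = 6.7e-06). BAG2 rose by 0.93 ± 0.11 (adjusted p = 0.000218) and by 0.33 with the normexp correction, on a probe well above background on 3 of 4 PBS arrays. BAG5 was lower on all 4 IFNT arrays but did not pass (-0.34 ± 0.13, adjusted p = 0.0664), and BAG6 differed by 0.01 ± 0.17. DNAJC13, a J-domain protein of endosomes, went from -3.14, -3.26, -3.02 and -3.13 to -2.19, -2.33, -2.20 and -2.34 (0.87 ± 0.06, adjusted p = 1.04e-05). HSPB9, counted among the 6 rises, was well above background on 1 of 4 PBS arrays and on all 4 IFNT arrays, so it was tested only through the group where it was high. It lay at -6.34, -5.94, -6.80 and -6.44 with PBS and at -4.97, -5.65, -5.20 and -5.29 with IFNT, and its call was lost with the normexp correction (0.28, adjusted p = 0.0911).

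Falls in this group included CCT6B, a CCT subunit typical of testis, which went from 1.25, 1.17, 1.20 and 1.11 to 0.34, 0.32, 0.29 and 0.32 (-0.87 ± 0.04, adjusted p = 1.07e-06, limma). HSPA5, the HSP70 of the endoplasmic reticulum, went from 2.44, 2.42, 2.34 and 2.44 to 1.98, 2.24, 2.25 and 2.20 (-0.24 ± 0.07, adjusted p = 0.0172). HSPH1, an HSP110 protein that exchanges the nucleotide of HSP70, went from 2.34, 2.28, 2.27 and 2.43 to 2.08, 1.93, 2.03 and 2.05 (-0.31 ± 0.06, adjusted p = 0.00221). No IFNT array of these 3 genes reached the PBS range. DNAJC2, a ribosome-bound J-domain protein, fell by 0.33 (adjusted p = 0.00463). CCT2 rose by 0.15 (adjusted p = 0.0447), a call lost without any of IFNT samples 1, 2, 3 and 4 and PBS samples 2 and 4 (adjusted p 0.0783 to 0.107). The CCT2 call was also lost with median scaling, dim probes kept and the replicate block (adjusted p 0.0661 to 0.0899). HSP90B1, the HSP90 of the endoplasmic reticulum, did not pass (-0.01 ± 0.05), nor did PDIA3 (0.30 ± 0.16, adjusted p = 0.159). Among the CCT subunits of both groups, CCT2 and CCT4 rose, CCT3, CCT5, CCT6B and CCT7 fell, and CCT8 did not pass. TCP1, a subunit of the ring read from the list of cytosolic partners, also fell, with overlapping groups (-0.22 ± 0.07, adjusted p = 0.0335, limma).

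**Figure D5:**
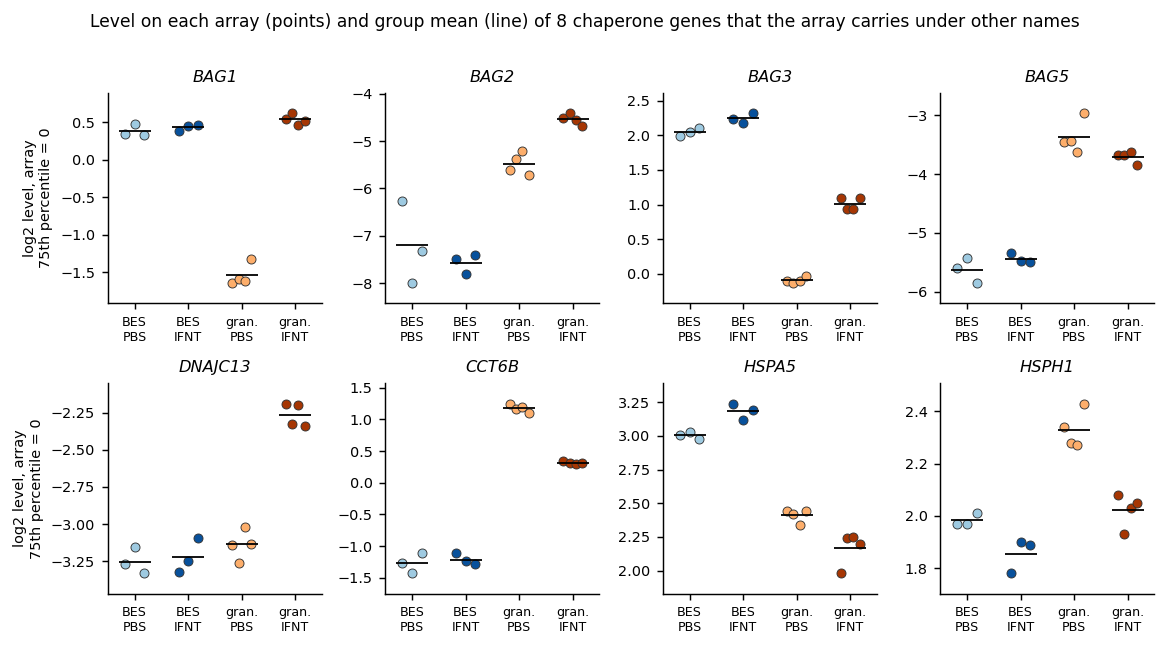
Log2 level (75th percentile of the array = 0) of 8 chaperone genes carried under other names, on each of the 14 arrays; points are arrays and lines are group means, with a separate vertical axis in each panel. BAG1, BAG2, BAG3 and DNAJC13 are higher on all 4 granulocyte arrays with IFNT than on the PBS arrays, and CCT6B, HSPA5, HSPH1 and BAG5 are lower, the last without passing the test.

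Genes around the chaperones were read from lists of regulators, cytosolic partners and genes of the endoplasmic reticulum. In BES none of the 8, 26 and 14 genes tested passed by limma, with 3, 5 and 0 at an unadjusted p under 0.05. In granulocytes, where 44.6% of all probes passed, 2 of 8 regulators rose and 2 fell. XBP1, the transcription factor that drives chaperone genes of the endoplasmic reticulum, lay at 3.36, 3.33, 3.40 and 3.35 with PBS and at 4.58, 4.57, 4.61 and 4.61 with IFNT (1.23 ± 0.04, adjusted p = 4.72e-08), and TRIB3, a pseudokinase of the stress response, rose by 0.44. EIF2AK1, the haem-regulated kinase, fell by 0.32 and NFYA by 0.24. Heat shock factor genes were not among the 8 with a named probe.

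Of 26 cytosolic partners, 3 rose and 8 fell in granulocytes, which does not exceed the share over all probes. AHSA1, the activator of the HSP90 ATPase, lay at 4.13, 4.20, 4.34 and 4.19 with PBS and at 3.41, 3.44, 3.50 and 3.46 with IFNT (-0.76 ± 0.05, adjusted p = 8.17e-06, limma). The HSP90 co-chaperone TTC4 rose by 0.55 ± 0.06 (adjusted p = 0.000103), PFDN2 of prefoldin, which feeds the CCT ring, fell by 0.40, and the HSP90-bound isomerase PPID fell by 0.39. Of 13 genes of the endoplasmic reticulum list, 5 rose and 3 fell. CRELD2 rose by 0.31 ± 0.05 (adjusted p = 0.000951), and SELENOS fell by 0.31. DERL3 rose by 0.31, a call lost without IFNT sample 2 or 4 (adjusted p 0.0545 to 0.0583).

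The 3 untested members lay near background in each group. DNAJC6, a J-domain protein of clathrin uncoating that is best known from neurons, ranged from -10.02 to -9.30 in BES and from -7.67 to -5.39 in granulocytes. PDIA2 ranged from -8.30 to -6.08 in BES and from -8.46 to -7.79 in granulocytes, and HSPB3 from -10.03 to -8.49 and from -8.34 to -6.80.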

How the data were processed

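RNA of 14 samples in 4 groups was read on Agilent bovine arrays. Per the file headers, the deposited scanner files hold a fluorescence intensity for each spot, which the authors made with Agilent Feature Extraction 9.5 (processed signal, corrected for background and spatial trend). The deposited value table holds log2 values, which differ from the log2 of the processed signals by 1 constant per array, and served as an alternative. From the log2 of each processed signal, the 75th percentile over the non-control probes of its array was subtracted. Outlier spots were left out, and a probe was tested if at least 3 BES arrays or 4 granulocyte arrays had it well above background, and in either for comparisons of cell types. Tests were two-sided moderated tests of limma 3.58.1 (R 4.3.3), adjusted by Benjamini-Hochberg over all probes tested, with a threshold of 0.05. Each cell type had its own fit; differences between them came from 1 fit of 14 arrays. The script was tested on simulated data.

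The members and gene lists were chosen with earlier results of these data known. Named genes are central chaperones whatever their test gave, members called in BES, the 12 largest non-overlapping rises and falls in granulocytes, the 6 largest differences of response and of cell type in each direction, and partner genes among the 4 largest of their list. DNAJB5, TCP1, FKBP4 and the genes under other names were added after their values were seen. Alternatives were the normexp correction (offset 50), quantile and median scaling, no filter, the value table, the mean of a symbol's probes, array row, a replicate block, 1 fit of all arrays, a trended robust prior and leaving out each array. Depth does not apply to arrays; their number limits the precision. Promoter and protein sequences were not analysed here.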

Additional observations from a re-analysis of the deposited data

Results flagged for a closer look

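In granulocytes 1 array of a group stood apart from the other 3 for 6 of the 35 named members, by Dixon's ratio over 70 groups tested, and this ratio marks some groups by chance. The DNAJB1 level was 1.15 in IFNT sample 2 beside 2.08 to 2.22 in the others. IFNT sample 2 also stood apart for HSPC111, at 0.44 beside 0.31 to 0.33. Among PBS samples, DNAJB11 was 0.55 in sample 4 beside 0.76 to 0.78, DNAJC3 was 1.27 in sample 1 beside 1.41 to 1.43, HSPB6 was -0.10 in sample 3 beside 0.32 to 0.39, and HSPC142 was 0.35 in sample 2 beside 0.42 to 0.43. The arrays that stood apart were spread over 5 of the 8 granulocyte samples.

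The IFNT response differed between the cell types, by the test of the difference itself, for 16 members. It was higher in granulocytes for DNAJB4 (0.91 on the log2 scale), DNAJC17 (0.62), HSPC049 (0.62), HSPA1B (0.58), HSPB8 (0.56), HSPB1 (0.54), DNAJA2 (0.42), DNAJC15 (0.41), DNAJA1 (0.29) and HSPA3 (0.23). It was lower for HSPBAP1 (-0.89), HSPA9B (-0.47), HSPC117 (-0.36), HSPC111 (-0.33), CCT5 (-0.31) and HSPA8 (-0.27).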

How the results depend on the processing

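No called member changed direction in BES or in granulocytes in any alternative run. Between the cell types under PBS, DNAJC5 was called lower in granulocytes (-0.49) but was 0.18 with the normexp correction, where its call was lost. The DNAJA1 difference of responses was also reversed, at -0.0098 with quantile normalization. The count of members called higher in BES was 0 with array row in the fit, with dim probes kept and with the replicate block. The count called lower in BES, 0 at the settings reported, was 2 with all 14 arrays in 1 fit, 5 with an intensity trend and robust prior, 1 with median scaling and 3 with the normexp correction, and the trend and robust prior called 2 of the genes under other names higher. With 1 array left out at a time, the members called were 0 to 1 higher and 0 to 1 lower in BES, 11 to 14 and 10 to 13 in granulocytes, 8 to 12 and 6 to 7 for the difference of responses, and 15 to 16 and 25 to 26 between cell types; of the genes under other names, 0 to 1 were higher and 0 lower in BES, and 5 to 6 were higher and 4 to 5 lower in granulocytes. Calls kept in every alternative were 0 of 1 in BES, 10 of 13 rises and 8 of 13 falls in granulocytes, 5 of 10 and 5 of 6 for the difference of responses, and 12 of 15 and 23 of 25 between cell types.

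Samples with the same number were not taken as pairs, since the labels give the number alone and not every pair deviated together: the correlations were -0.01 to 0.06 in BES, and 0.14, 0.18, 0.20 and -0.12 for numbers 1 to 4 in granulocytes. With the replicate block, DNAJA1 in BES had an adjusted p of 0.0616, the granulocyte counts were 12 higher and 12 lower (DNAJB11 and DNAJB2 no longer passed) and those for the difference of responses 9 and 5 (without HSPA3 and HSPC117). Where an alternative changed a call, the cause was not tested, except that leaving out arrays lowers the number of samples. With dim probes kept, DNAJA1 in BES, DNAJB11, DNAJC3, HSPA8 and CCT7 in granulocytes and HSPA3 for the difference of responses no longer passed (adjusted p 0.0521 to 0.0705). Small numbers of arrays and probes near background, such as DNAJB4 in granulocytes and PDIA4, limit the precision.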

Other observations

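Arrays of 1 group varied more for DNAJB1 than for other heat-inducible members. In granulocytes with PBS its level ran from 1.07 to 2.77, while the level of HSPA1A ran from 4.69 to 4.84. Among these arrays, sample 4 had the lowest DNAJB1 level (1.07) and the highest HSP90AB1 level (4.55), and sample 3 had the highest DNAJB1 level (2.77) and the lowest HSP90AB1 level (3.87). In BES with PBS, sample 2 had the lowest DNAJB1 level (-1.47) and the highest HSP90AB1 level (6.50), and sample 3 the highest (-0.25) and the lowest (6.06). With IFNT, granulocyte sample 2 had the lowest DNAJB1 (1.15) and the highest HSP90AB1 level (4.27) and sample 3 the reverse (2.22 and 3.85). In BES with IFNT the genes ran the same way, sample 2 being lowest in DNAJB1 (-0.49) and HSP90AB1 (5.91) and sample 3 highest in both (-0.19 and 5.98). The order of HSP90AB1 on the PBS arrays was not particular to this gene. In both cell types the cytosolic partner FKBP4 and the probe named HSPA1B followed the same order there, while HSPA1A did not. These orders were noticed in the data and were not tested.

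HSPA12A, an atypical HSP70 gene that the array carries under another name, was not well above background on any granulocyte array. It lay at -3.04, -3.00 and -2.77 on the BES arrays with PBS, which is at least 7.51-fold higher than the lowest signal called above background on the granulocyte arrays with PBS; it entered this comparison through the BES arrays alone.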
